A study of Mus musculus with 4 samples.

Results

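The growth hormone and insulin-like growth factor (IGF) axis was described from 8 named genes: Igf1, Igfbp1, Igfbp2, Igfbp4, Igfals, Ghr, Stat5b and Socs2. They were taken by gene symbol from a table of 37819 features, which held 7 of them, and Ghr is not analysed here. Of the 7, 6 had at least 10 counts in at least 1 library and entered the comparisons, and Socs2 did not. The RNA came from mitochondria of the liver and was depleted of ribosomal RNA, and 4 libraries were made, 1 each for db, ob, NASH and wild-type mice at postnatal week 7. The db mice carried a leptin receptor mutation (genotype BKS.Cg-Dock7m+/+Leprdb/J), so any effect of BKS background and that of the mutation cannot be told apart in them. The ob mice carried a leptin mutation (genotype B6.Cg-Lepob/J). The NASH mice had a wild-type genotype and non-alcoholic steatohepatitis, and the labels do not name the diet or treatment behind it. All 4 groups carry the strain label C57BL/6J.

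Growth hormone from the pituitary binds its receptor on hepatocytes and acts through the kinase JAK2 and the transcription factor STAT5B, encoded by Stat5b. This raises transcription of Igf1, the hormone that carries much of the growth signal in blood, of Igfals, the acid-labile subunit that keeps IGF-1 in a large circulating complex, and of Socs2, an inhibitor that damps the receptor. IGF binding proteins hold IGF-1 outside that complex or within it: IGFBP1 is a liver product that insulin represses, IGFBP2 is a liver product known to respond to leptin in mice, and IGFBP4 is an inhibitory binding protein that proteases cleave.

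The libraries differed in depth and make-up. They held 1005741 counts in db, 1000102 in ob, 529612 in NASH and 627731 in wild-type. A set of 7 features that resemble mitochondrial genes in sequence took 26.3 to 75.5% of counts (the most in NASH), which left 574009, 400781, 60660 and 151918 counts on other protein-coding features in db, ob, NASH and wild-type. The ob library stood apart by its Neat1, with 7450 counts against 5 to 109 in the others. Of 3 listed nuclear-retained RNAs past the count filter, 2 (Neat1 and Malat1) were at least 2-fold higher in ob than in wild-type. The other 1 (Meg3) was at least 2-fold lower. All 12 hepatocyte markers listed had counts in every library. Levels are scaled counts per 1000000 (CPM) from a trimmed mean of M-values (TMM), and each fold is a ratio of scaled counts followed by its exact 95% counting interval. Each group is a single library, so no difference could be checked against replicates. The intervals cover counting error only, and a fold compares libraries, not conditions. Features were called at 2-fold or more on log2(CPM + 1), without a test, and again with the added demand that the interval exclude 1.

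Igf1 (ENSMUSG00000020053, mm10 chromosome 10, 87858265 to 87937042, plus strand) was most abundant in the db library under TMM. It had 235 counts in db, 98 in ob, 26 in NASH and 36 in wild-type. Its level was 222 CPM in db, 65.0 in ob, 53.2 in NASH and 83.8 in wild-type. The db level stood above the other libraries, whereas wild-type, ob and NASH did not separate from their neighbours in that order, with 1.29-fold (0.854 to 1.91) between wild-type and ob and 1.22-fold (0.787 to 1.96) between ob and NASH. Igf1 was 2.65-fold higher in db than in wild-type (1.86 to 3.88), and 1.73- to 4.08-fold higher over 6 scalings. In ob it was 0.776 of wild-type (0.525 to 1.17) and in NASH 0.635 (0.368 to 1.08), and the direction of both turned with the scaling, over 0.629 to 1.71 in ob and 0.633 to 1.80 in NASH. Under protein-coding totals the log2 fold of Igf1 over wild-type was 0.85 in NASH and 0.79 in db, so db was not highest there.

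**Figure D1:**
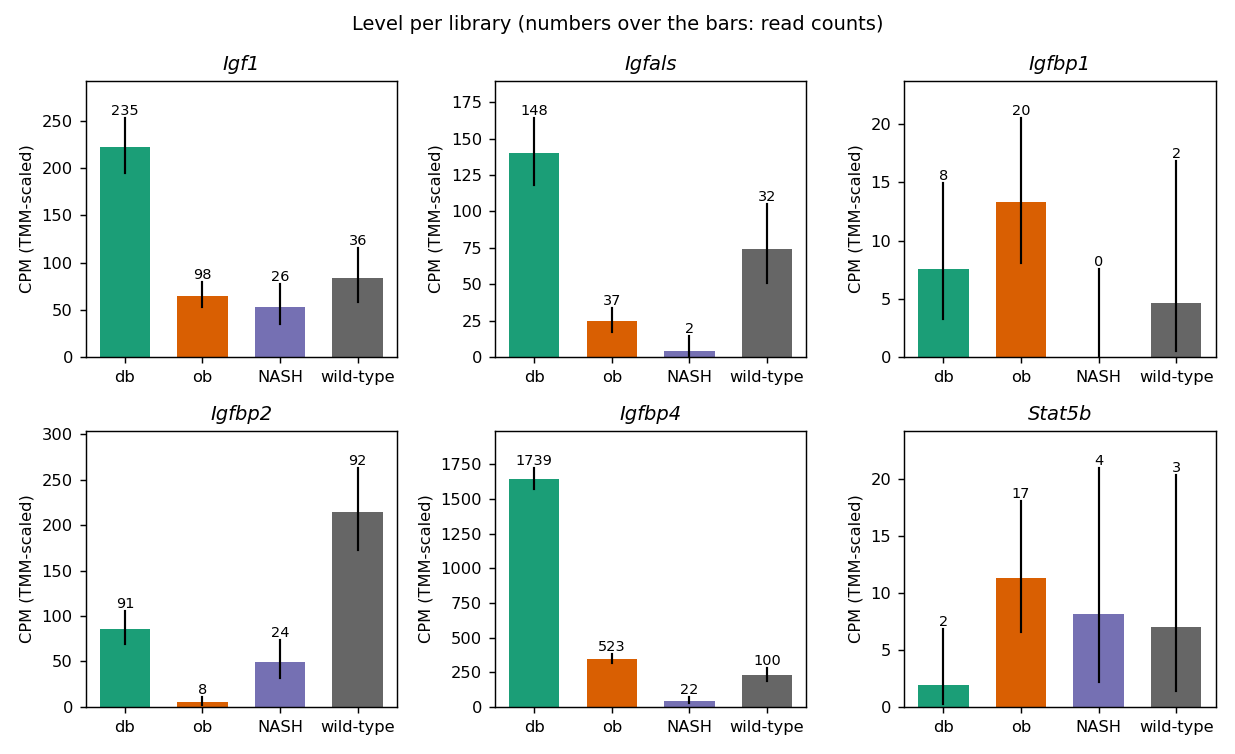
Level of 6 members in the db, ob, NASH and wild-type libraries, in CPM after TMM scaling; bars are single libraries, lines are exact 95% Poisson intervals and the numbers are read counts. Igf1, Igfals and Igfbp4 are highest in db, Igfbp2 is highest in wild-type and lowest in ob, and Igfbp1 and Stat5b have no more than 20 counts in any library.

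Igfals (ENSMUSG00000046070, chromosome 17, 24878770 to 24882008, plus strand) had the same order of TMM levels as Igf1, db, wild-type, ob and NASH from high to low, over a wider range. For Igf1 the libraries below db were not separated under TMM, and the order of the libraries, the place of db included, turned with the scaling. Igfals had 148 counts in db, 37 in ob, 2 in NASH and 32 in wild-type. These gave 140.0 CPM in db, 24.6 in ob, 4.09 in NASH and 74.5 in wild-type, and each library was separated from the next in that order. Igfals was 1.88-fold higher in db than in wild-type (1.28 to 2.85), and 1.22- to 2.89-fold over the scalings, so that whether it passed 2-fold depended on the scaling. It was 3.03-fold lower in ob (1.83 to 5.0). In NASH it was 18.2-fold lower (4.64 to 157), from 2 counts, and 6.41- to 18.3-fold lower over the scalings. In ob the scalings gave 1.38 to 3.73-fold lower.

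A ratio of 2 genes within a library does not depend on scaling. Igfals had 0.630 counts per count of Igf1 in db, 0.378 in ob, 0.0769 in NASH and 0.889 in wild-type. The ratio was thus 2.35-fold lower in ob than in wild-type (1.22 to 4.52) and 11.6-fold lower in NASH (2.50 to 106), and in db it was 0.709 of the wild-type ratio (0.408 to 1.23). Set against albumin mRNA (Alb), the most abundant hepatocyte message, Igf1 had 2.3 counts per 1000 of Alb in db, 2.31 in ob, 11.7 in NASH and 2.19 in wild-type. Against wild-type, Igf1 per albumin was 1.05 in db (0.739 to 1.54) and 1.06 in ob (0.714 to 1.59), and both intervals included 1. In NASH, Igf1 per albumin was 5.34-fold above wild-type (3.09 to 9.11). Albumin itself was at 4552 CPM in NASH and 38299.8 CPM in wild-type, while Igf1 was 0.635 of wild-type (0.368 to 1.08). The higher ratio thus went with lower albumin, not with a higher level of Igf1 under TMM. Macrophages are another known source of Igf1. Of 11 macrophage and Kupffer cell markers 9 were at least 2-fold higher in NASH and 0 lower, against 20.3% and 32.0% of all features. Their summed level was 1430.1 CPM in NASH and 291 CPM in wild-type. Gpnmb and Mmp12 were at 0 in wild-type. The part of these cells in the Igf1 ratio was not tested. Igfals per albumin was 0.746 of wild-type in db (0.506 to 1.13), 0.448 in ob (0.272 to 0.744) and 0.462 in NASH (0.0536 to 1.81). The intervals of db and NASH included 1, and that of ob did not.

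**Figure D2:**
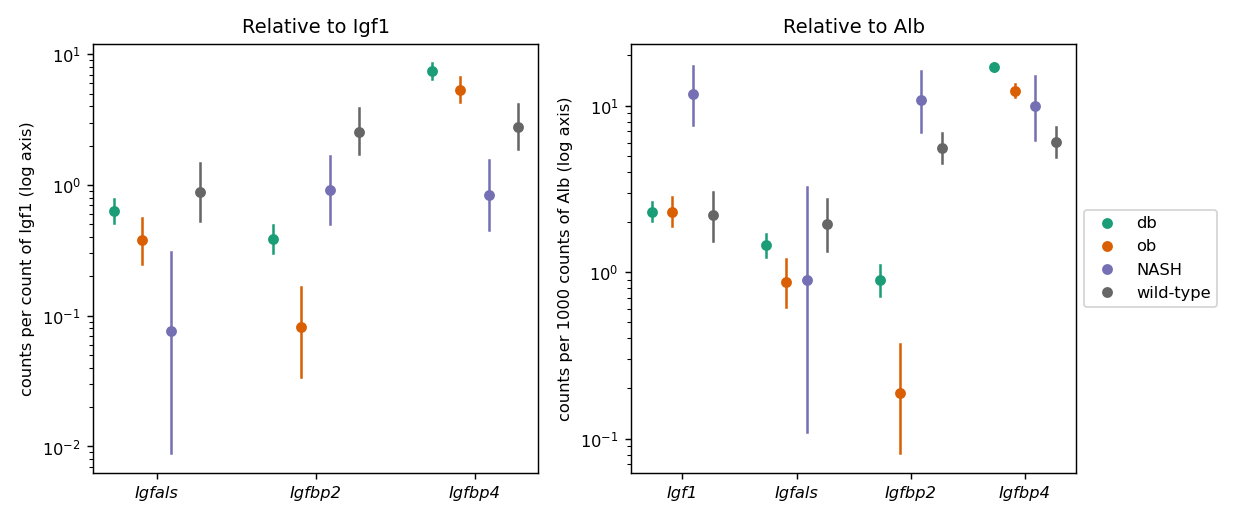
Counts of Igfals, Igfbp2 and Igfbp4 per count of Igf1 (left), and of Igf1, Igfals, Igfbp2 and Igfbp4 per 1000 counts of Alb (right), on log axes, in each library with exact 95% binomial intervals. Per albumin, Igf1 lies at 2.19 to 2.31 in db, ob and wild-type and at 11.7 in NASH, while Igfbp2 spans 0.189 in ob to 10.8 in NASH.

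Igfbp4 (ENSMUSG00000017493, chromosome 11, 99041244 to 99054392, plus strand) had, per exon length, the highest level of the members in db and ob. It had 1739 counts in db, 523 in ob, 22 in NASH and 100 in wild-type. Its levels were 1645, 347, 45.0 and 233 CPM in db, ob, NASH and wild-type, each separated from the next. Igfbp4 was 7.07-fold higher in db than in wild-type (5.77 to 8.73) and 4.59- to 10.9-fold higher over the scalings. It was 1.49-fold higher in ob (1.2 to 1.87) under TMM, below the call, and 1.21- to 3.27-fold over the scalings, past 2-fold under plain totals and under totals without the features that resemble mitochondrial genes. It was 5.17-fold lower in NASH (3.24 to 8.62). Per 1000 counts of albumin it had 17.0 in db, 12.3 in ob, 9.89 in NASH and 6.08 in wild-type. The ratio was 2.80-fold above wild-type in db (2.29 to 3.47) and 2.03-fold in ob (1.63 to 2.54), so Igfbp4 exceeded wild-type relative to albumin in both leptin-pathway mutants. In NASH it was 1.63-fold above (0.974 to 2.61), an interval that includes 1. Per exon length Igfbp4 ranked 87 in db, 144 in ob, 528 in NASH and 223 in wild-type among 5194 protein-coding features (373, 78.6, 10.2 and 52.7 CPM per kilobase). The 250 bases before its start in RefSeq (GRCm38.p6, plus strand, chr11:99040994-99041243) were 69.2% G or C, against a median of 52.4% over all 32851 such windows. They are shown because Igfbp4 had the largest fold of the 6 members in db over wild-type:
Igfbp4: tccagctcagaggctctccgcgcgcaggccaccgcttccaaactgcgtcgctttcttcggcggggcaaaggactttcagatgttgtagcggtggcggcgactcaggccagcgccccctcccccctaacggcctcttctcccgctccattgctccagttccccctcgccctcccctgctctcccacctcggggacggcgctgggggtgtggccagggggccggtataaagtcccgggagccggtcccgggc

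Igfbp2 (ENSMUSG00000039323, chromosome 1, 72824503 to 72852474, plus strand) was lower in every disease model library than in wild-type. It had 91 counts in db, 8 in ob, 24 in NASH and 92 in wild-type. Its levels were 86.1, 5.31, 49.1 and 214 CPM in db, ob, NASH and wild-type, each separated from the next in order. It was 2.49-fold lower in db than in wild-type (1.84 to 3.36) and 4.36-fold lower in NASH (2.76 to 7.15). In ob, the mice without functional leptin, it was 40.3-fold lower (19.6 to 96.2), and 18.4- to 49.5-fold lower over the scalings. The 3 models share the same wild-type library. Relative to albumin, Igfbp2 had 0.892 counts per 1000 in db, 0.189 in ob, 10.8 in NASH and 5.59 in wild-type. On that measure it was 6.27-fold lower in db (4.64 to 8.47) and 29.6-fold lower in ob (14.4 to 70.7), but 1.93-fold higher in NASH (1.17 to 3.06). Over the scalings it was 1.62- to 3.81-fold lower in db and 1.53- to 4.35-fold lower in NASH. The 250 bases before its RefSeq start (plus strand, chr1:72824230-72824479), shown beside the Igfbp4 promoter because these genes differed from wild-type in opposite directions in db, were 67.2% G or C:
Igfbp2: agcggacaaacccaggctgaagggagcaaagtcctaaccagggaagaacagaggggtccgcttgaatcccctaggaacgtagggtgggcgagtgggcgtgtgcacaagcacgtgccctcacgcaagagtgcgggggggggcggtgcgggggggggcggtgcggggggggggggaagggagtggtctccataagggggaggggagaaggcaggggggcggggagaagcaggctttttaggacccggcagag

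**Figure D3:**
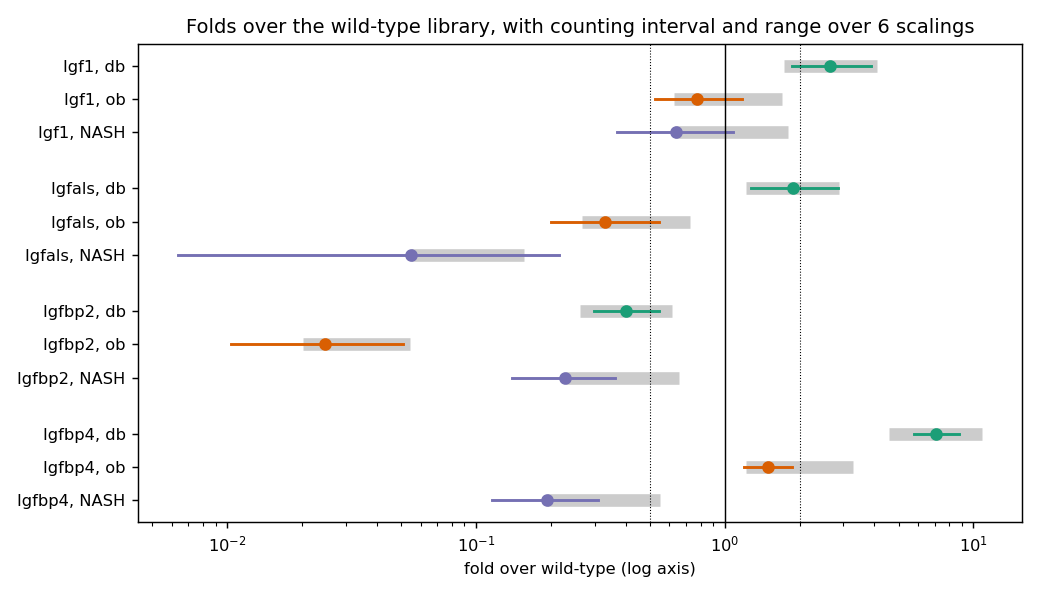
Fold of the db, ob and NASH libraries over the wild-type library for Igf1, Igfals, Igfbp2 and Igfbp4 on a log axis; points are TMM-scaled folds, coloured lines exact 95% counting intervals, grey bars the range over 6 scalings, and dotted lines mark 2-fold. Igfbp4 in db and Igfbp2 in ob lie beyond 2-fold under each scaling, whereas the grey bars of Igf1 in ob and NASH cross a fold of 1.

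Igfbp1 (ENSMUSG00000020429, chromosome 11, 7197782 to 7202546, plus strand) was scarce in these libraries of liver mitochondrial RNA. The liver is its main source, but its level in whole liver was not measured here. Igfbp1 had 8 counts in db, 20 in ob, 0 in NASH and 2 in wild-type, or 7.57, 13.3, 0 and 4.66 CPM, and a count of 0 allows up to 6.14 CPM in NASH. The ob library was 2.85-fold above wild-type (0.693 to 25.2) and db 1.63-fold (0.324 to 15.7), so no neighbours in the order of libraries were separated. Its promoter (plus strand, chr11:7197537-7197786) is shown because it holds, in capitals, the insulin response letters TGTTTTG on the minus strand, beginning 108 bases before the RefSeq start:
Igfbp1: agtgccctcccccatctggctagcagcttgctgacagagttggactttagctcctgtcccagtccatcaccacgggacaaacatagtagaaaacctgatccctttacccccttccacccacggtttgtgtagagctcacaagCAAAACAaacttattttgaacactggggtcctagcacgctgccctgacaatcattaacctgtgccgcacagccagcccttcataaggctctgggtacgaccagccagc

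The make-up of the binding protein reads differed between libraries. Igfbp1 to Igfbp7 together had 1906 counts in db, 601 in ob, 67 in NASH and 216 in wild-type. Igfbp4 made up 91.2% of them in db (89.9 to 92.5), 87.0% in ob (84.1 to 89.6), 32.8% in NASH (21.8 to 45.4) and 46.3% in wild-type (39.5 to 53.2). Igfbp2 made up 4.77% in db (3.86 to 5.83), 1.33% in ob (0.576 to 2.61), 35.8% in NASH (24.5 to 48.5) and 42.6% in wild-type (35.9 to 49.5). The intervals of db and ob did not overlap those of NASH and wild-type for either gene. Per exon length, Igfbp4 made up 79.3% in db, 71.0% in ob, 14.7% in NASH and 25.3% in wild-type, and Igfbp2 9.93%, 2.60%, 38.4% and 55.6% in the same order. The count of Igfbp2 per Igfbp4 was 17.6-fold lower in db than in wild-type (12.1 to 25.4) and 60.1-fold lower in ob (27.9 to 147), and in NASH it was 1.19 of wild-type (0.592 to 2.38). Igfbp7, a binding protein-like gene of vessels and stromal cells, made up 2.83% of counts in db (2.14 to 3.68), 5.32% in ob (3.67 to 7.43), 26.9% in NASH (16.8 to 39.1) and 8.33% in wild-type (5.01 to 12.9), and Igfbp3, Igfbp5 and Igfbp6 had at most 11 counts in any library. The level of Igfbp7 itself was 36.8 CPM in NASH and 41.9 CPM in wild-type, from 18 counts in each, a fold of 0.879 (0.431 to 1.79), so its larger share in NASH stood beside lower Igfbp2 and Igfbp4.

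**Figure D4:**
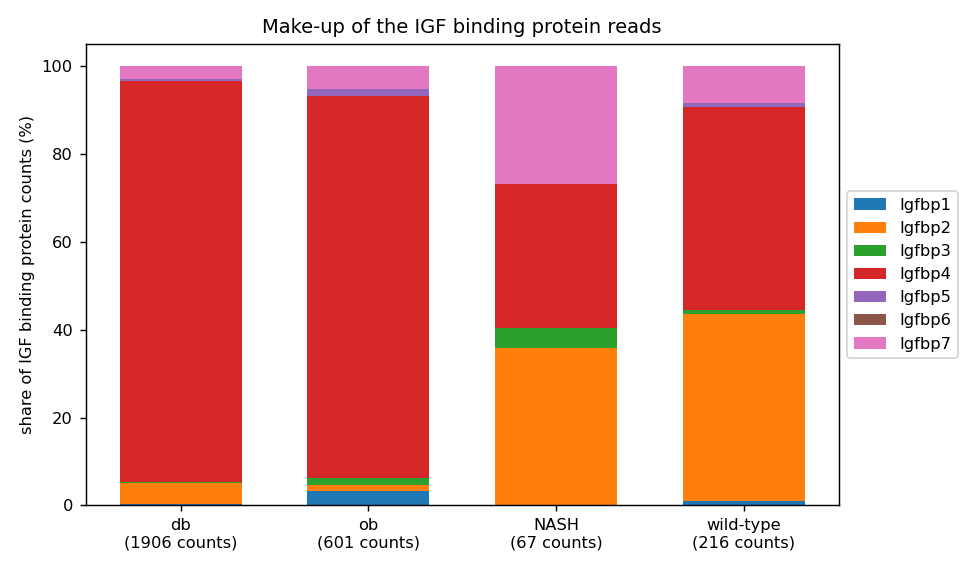
Share of Igfbp1 to Igfbp7 in the summed counts of these genes in each library, in percent, with the sums under the bars. Igfbp4 takes 91.2% in db and 87.0% in ob, against 46.3% in wild-type, and Igfbp2 takes 42.6% in wild-type and 35.8% in NASH.

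Stat5b and Socs2, which carry and damp the growth hormone signal, had few counts. Stat5b (ENSMUSG00000020919, chromosome 11, 100780731 to 100850724, minus strand) had 2 counts in db, 17 in ob, 4 in NASH and 3 in wild-type, and was 1.62-fold higher in ob than in wild-type (0.467 to 8.61). The neighbouring Stat5a is a close copy, and how reads shared by both were counted is not known, so the values of Stat5b are uncertain. Socs2 (ENSMUSG00000020027, chromosome 10, 95385362 to 95417180, minus strand) had 1 count in db, 1 in ob, 3 in NASH and 1 in wild-type, and a difference in it was not detectable at this depth.

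In db, 2 of the 6 members were called higher than wild-type (Igf1 and Igfbp4), against 28.9% of all 5347 features, and 2 lower (Igfbp2, and Stat5b on 2 against 3 counts), against 21.5%. Their median log2 fold change was 0.75, beside 0.10 for all features. With the interval the counts were 2 higher and 1 lower, against 14.8% and 10.7% of features. Of the 12 hepatocyte markers 7 were higher in db and 0 lower, with a summed level of 142065 CPM in db and 65659 CPM in wild-type. In ob, 1 member was called higher (Igfbp1), against 34.7% of features, and 2 lower (Igfbp2 and Igfals), against 15.7%, with medians of 0.11 for members and 0.40 for all features. With the interval they were 0 and 2, against 14.9% and 11.9%. Of the 12 hepatocyte markers 2 were higher in ob and 5 lower, with a summed level of 43169 CPM in ob and 65659 CPM in wild-type, 1.52-fold lower. All 3 erythroid markers measured (Hba-a1, Hba-a2 and Alas2) were higher in ob, with a summed level of 980.3 CPM in ob and 79.1 CPM in wild-type, 12.4-fold higher (8.82 to 18.0). The part of these cells in the members' values was not tested. In NASH, 0 members were called higher, against 20.3% of features, and 4 lower (Igfbp2, Igfbp4, Igfals, and Igfbp1 on 0 against 2 counts), against 32.0%, with medians of -2.22 for members and -0.15 for all. With the interval they were 0 and 3, against 4.62% and 14.3%. All 12 hepatocyte markers were lower in NASH, and their summed level was 7494 CPM in NASH and 65659 CPM in wild-type, 8.76-fold lower (8.46 to 9.07). Fewer hepatocytes, less RNA per hepatocyte and a difference between the mitochondrial preparations cannot be told apart in such bulk samples. Features that resemble mitochondrial genes took 75.5% of counts in NASH and 53.2% in wild-type. Other protein-coding features took 11.5% and 24.2%. With protein-coding totals as the scaling, Igfbp2 and Igfbp4 in NASH were no longer 2-fold lower, at 1.53- and 1.82-fold, and Igfals still was. Totals without the features that resemble mitochondrial genes gave Igfbp2 a log2 fold of -0.76 and Igfbp4 one of -1.01.

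The db library, from mice with a leptin receptor mutation, was compared with the ob library, from mice with a leptin mutation. The genotype labels also name BKS for db and B6 for ob, so mutation and any effect of background cannot be told apart. Of the 6 members 4 were called higher in db (Igf1, Igfbp2, Igfbp4 and Igfals), against 19.6% of features, and 1 lower (Stat5b, 2 against 17 counts), against 30.3%. The same 4 and 1 had intervals that excluded 1, against 17.1% and 22.0% of features. Igfbp2 was 16.2-fold higher in db than in ob (7.89 to 38.7), Igfals 5.70-fold (3.95 to 8.41), Igfbp4 4.74-fold (4.30 to 5.24) and Igf1 3.42-fold (2.69 to 4.37). Over the scalings the folds were 7.94 to 21.6 for Igfbp2, 2.79 to 7.62 for Igfals, 2.33 to 6.32 for Igfbp4 and 1.67 to 4.56 for Igf1, whose call was lost under protein-coding totals. Of the 12 hepatocyte markers 10 were higher in db and 0 lower, with summed levels of 142065 CPM in db and 43169 CPM in ob, 3.29-fold higher (3.26 to 3.32). All 3 erythroid markers measured were lower in db, with a summed level 45.1-fold lower than in ob (29.9 to 71.3). The part of cell make-up in the folds of the members was not tested. Relative to albumin, the interval of Igf1 in db over ob included 1 (0.997, 0.784 to 1.28), and the other 3 genes were higher in db, with Igfbp2 4.73-fold (2.3 to 11.3), Igfals 1.66-fold (1.15 to 2.45) and Igfbp4 1.38-fold (1.25 to 1.53).

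Around these members, a list of 43 other genes of IGF, growth hormone and insulin receptor signalling gave 20 genes past the filter. Against wild-type, 6 were called higher and 5 lower in db, 8 and 2 in ob, and 4 and 5 in NASH, with list medians of 0.18, 0.24 and 0.42 beside 0.10, 0.40 and -0.15 for all features. The shares of all features called higher and lower were 28.9% and 21.5% in db, 34.7% and 15.7% in ob, and 20.3% and 32.0% in NASH. With the interval, 3 list genes were higher and 2 lower in db, 5 and 1 in ob, and 1 and 1 in NASH. The shares of all features under that rule were 14.8% and 10.7% in db, 14.9% and 11.9% in ob, and 4.62% and 14.3% in NASH. Igf2r, the receptor that clears IGF-2 and sorts lysosomal enzymes, had 147 counts in db, 61 in ob, 7 in NASH and 3 in wild-type, and was 19.9-fold higher in db than in wild-type (6.68 to 97.7) and 5.8-fold in ob (1.89 to 28.9). Insr, the insulin receptor gene, had 137 counts in db, 93 in ob, 3 in NASH and 9 in wild-type, and was 6.19-fold higher in db (3.16 to 13.8) and 2.95-fold in ob (1.49 to 6.64). Prlr, the prolactin receptor gene, whose product also signals through STAT5, had 83, 93, 0 and 11 counts in the same order. It was 3.07-fold higher in db (1.63 to 6.38) and 2.41-fold higher in ob (1.29 to 5.0). In NASH a floor of 3 counts gave a bound of 4.17-fold lower under TMM. This bound leaves out counting error in the 11 wild-type counts. Folds of these pathway genes are given under TMM only. Protein-coding totals moved NASH upward, with a median log2 fold of all features of 1.21 against -0.15 under TMM. Igf1r, the IGF-1 receptor gene, which hepatocytes are known to express weakly, had 1 to 3 counts in every library.

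Irs1, an insulin receptor substrate gene, had 5 counts in db, 22 in ob, 0 in NASH and 0 in wild-type. A floor of 3 counts in wild-type gave a bound of 2.09-fold higher in ob under TMM, without counting error in the ob counts. Foxo3, a transcription factor gene that insulin signalling restrains, had 4, 22, 4 and 1 counts in the same order, with 6.27-fold in ob (1.01 to 259). Pik3r1, which encodes the regulatory subunit of PI3-kinase, had 16, 32, 6 and 11 counts, and no fold against wild-type had an interval that excluded 1. Stat3, which serves interleukin-6 and leptin receptors, had 5, 20, 10 and 5 counts, and Igfbp7 had 54, 32, 18 and 18. Igfbp7 in ob was 1.97-fold lower than in wild-type under TMM (1.04 to 3.62). Whether its direction holds under other scalings was not tested. Plain totals moved ob upward, with a median log2 fold of all features of 1.41 against 0.40 under TMM.

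**Figure D5:**
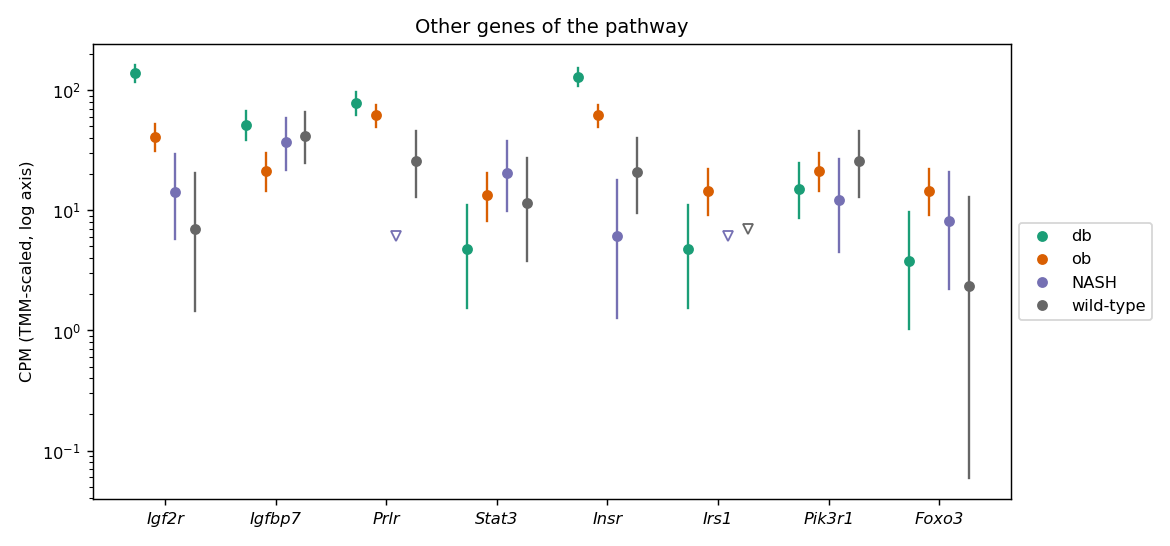
Level of the pathway genes named in the text with at least 20 counts in a library, in CPM on a log axis, by library, with exact 95% Poisson intervals; open triangles mark 0 counts at the floor of 3 counts. Igf2r and Insr are highest in db and next in ob, and Prlr has 0 counts in NASH.

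The features whose profile over the 4 libraries lay closest to each member were found among 995 features with at least 50 counts, by the distance between centred log2(CPM + 1) values. Nearest to Igfbp4 were Asgr2, an asialoglycoprotein receptor gene of hepatocytes, at a distance of 0.14, and C1rl at 0.21. Asgr2 had 260 counts in db, 74 in ob, 3 in NASH and 16 in wild-type. Nearest to Igfals were the plasma protein genes Plg (0.43) and Fetub (0.53) and the endoplasmic reticulum chaperone gene Hyou1 (0.55). Nearest to Igf1 were Slc38a2, an amino acid transporter gene (0.33), and the lysosomal enzyme genes Fuca1 (0.35) and Ctsh (0.40). Igfbp2 had no close neighbour, with Atp8b3 at 2.1, Pebp1 at 2.11 and the major urinary protein gene Mup20 at 2.17.

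RefSeq gave 10 promoter windows for 6 of the members, and the 250 bases before each start were searched on both strands. The STAT5 letters TTCNNNGAA, bound by the factor that growth hormone activates, were in 2 windows, both of Igfals, and in 7.02% of all 32851 windows. The FoxO letters TGTTTAC were in 1 window, also of Igfals, and in 3.17% of all, and the insulin response letters TGTTTTG in 1 window, that of Igfbp1, and in 5.56%. The Igfals window with both kinds of match (plus strand, chr17:24877981-24878230) belongs to a RefSeq start 539 bases upstream of the deposited gene start. It is shown with the FoxO letters first and the STAT5 letters, which begin 58 bases before that start, second, both in capitals:
Igfals: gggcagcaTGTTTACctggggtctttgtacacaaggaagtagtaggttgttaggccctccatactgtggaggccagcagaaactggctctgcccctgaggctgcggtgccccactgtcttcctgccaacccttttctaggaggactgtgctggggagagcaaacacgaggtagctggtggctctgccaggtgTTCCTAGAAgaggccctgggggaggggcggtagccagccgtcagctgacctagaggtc
These matches describe letters in the windows, not binding. No window of Igf1, Igfbp2, Igfbp4 or Stat5b held any of the motifs. Nor did the Igfals window nearest the deposited gene start (chr17:24878497-24878746), whose RefSeq start lies 23 bases from it. The only Igf1 window belongs to a RefSeq start 2846 bases from the deposited gene start, and the bases before the deposited start were not searched.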

How the data were processed

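The authors deposited raw values per feature, each an expected count that may hold a fraction, per the file headers, and 53.7 to 89.5% of nonzero values in a library were within 0.01 of a whole number. A second set of deposited columns holds log2 values after TMM, per the file headers. They equal the log2 count plus 1 constant per library (-0.23 in db, -0.87 in ob, 0.61 in NASH and 0.56 in wild-type), and they served as an alternative scaling. Libraries were stranded (NEBNext Ultra Directional, rRNA-depleted) from miRNeasy RNA, per the labels' protocols. The submitters' processing notes name mm10, TopHat2 2.1.1, Bowtie2 2.3.2, Trimmomatic 0.32 and bcl2fastq 2.20. How reads were counted, on which annotation and with what rule for multi-mapped reads, and how mitochondria were purified, was not stated there or in the labels.

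Counts were rounded, and the 5347 features that reached 10 counts in any library were kept. TMM factors (edgeR 4.0.16, R 4.3.3) were 1.05 in db, 1.51 in ob, 0.923 in NASH and 0.684 in wild-type. Folds are ratios of scaled counts with exact binomial 95% intervals, and ratios of ratios have exact conditional intervals. Intervals and floors cover counting error only, because each group had 1 library. They take each read as independent, and reads here carry no molecular identifiers. Where a library had 0 counts, a floor of 3 counts in that library gave a bound (2.84 CPM in db, 1.99 in ob, 6.14 in NASH and 6.98 in wild-type), and no fold is given where both libraries had 3 counts or fewer. DESeq2 1.42.0 gave size factors for an alternative. The other alternatives were plain totals, deposited values, totals without 7 features at least 80% identical to mitochondrial genes over at least 100 bases (searched among features above 0.05% of a library's counts), totals of protein-coding features (chosen after seeing the data), a pseudocount of 5 CPM, no filter and calls that need the interval. Exon lengths came from GENCODE M21 and promoters from RefSeq (GRCm38.p6). The call step was tested on simulated data. With 1 library per group no test between groups was run. All members were named whatever their values, pathway genes where they reached 20 counts in a library, and the 3 nearest profiles for members with 50 counts, except that some of these genes are not reported here. Members and lists were chosen with earlier results of these data known. Python 3.11.15, numpy 2.4.6, pandas 2.3.3 and scipy 1.17.1 were used.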

Additional observations from a re-analysis of the deposited data

How the results depend on the processing

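No paired analysis was possible because each group had 1 library and no replicate numbers. Scaling moved all features together: the median log2 fold of all features ranged from -0.42 to 0.62 in db, 0.13 to 1.41 in ob and -0.15 to 1.21 in NASH against wild-type, and from -1.18 to 0.20 in db against ob. Of 110 member folds under other scalings 77 stayed within the counting interval of the reported fold and 33 moved beyond it, and no called member changed direction. Protein-coding totals were chosen after seeing the data.

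Against wild-type in db, 2 members were called higher and 2 lower under TMM, but 4 and 0 under plain totals, 4 and 1 with the deposited values, 1 higher under protein-coding totals, and 1 lower with the pseudocount of 5 or with intervals that exclude 1. Features called were 1547 higher and 1149 lower, against 2099 and 632 under plain totals and 2076 and 743 with deposited values. They were 1152 and 1929 under protein-coding totals, and 2900 and 3901 without the filter. In ob, members were 1 higher and 2 lower, but 3 and 1 under plain totals, 3 higher without the features resembling mitochondrial genes, 2 higher with deposited values or protein-coding totals, and 0 higher with the pseudocount of 5 or the interval. Features were 1857 and 842, against 3296 and 249 under plain totals and 2514 and 518 without the features resembling mitochondrial genes. They were 2405 and 638 with deposited values, 2424 and 604 under protein-coding totals, and 4273 and 3838 without the filter. In NASH, members were 0 higher and 4 lower, but 1 higher without the features resembling mitochondrial genes, 1 and 2 under protein-coding totals (Stat5b, on 4 against 3 counts, was the higher one under both), and 1 higher without the filter (Socs2, 3 against 1 counts). Features were 1084 and 1711, against 2610 and 875 without the features resembling mitochondrial genes, 2848 and 797 under protein-coding totals, and 3557 and 4234 without the filter. In db against ob, members were 4 higher and 1 lower, with 3 higher under protein-coding totals (Igf1, log2 0.74, was lost) and 2 lower under plain, protein-coding and mitochondria-free totals. Features were 1048 and 1618, against 425 and 2276 under plain totals, 1590 and 1252 with DESeq2 size factors, and 412 and 2311 without the features resembling mitochondrial genes. They were 172 and 2875 under protein-coding totals, and 2057 and 3792 without the filter. Depth limits values that rest on few counts, among them Igfbp1, Stat5b, Socs2 and Igfals in NASH, since 3 counts correspond to 6.14 CPM in NASH and 6.98 CPM in wild-type.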

Other observations

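Below the limit for named pathway genes, and chosen after their values were seen, were a few genes next to the receptor. Jak2, the kinase bound to the growth hormone receptor, had 3 counts in db, 6 in ob, 19 in NASH and 2 in wild-type, and was 8.35-fold higher in NASH than in wild-type (2.01 to 73.9), while the receptor gene Prlr had 0 counts in NASH. Stat5a, the close copy of Stat5b, had 1, 13, 2 and 0 counts in the same order, and the interval of ob over wild-type included 1. Cish and Socs1, feedback inhibitors of the pathway, had 0 counts in every library.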
